A study of Rattus norvegicus with 12 samples.

Results

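Integrins, laminins and the adhesive proteins of the matrix were followed in long bone of ovariectomized (OVX) and sham-operated female rats. Members were taken by symbol alone, from the probe sets that GEO's platform annotation gives to a single gene: integrin chains and the symbols that share their prefix, without Itga2b, together with laminin chains, thrombospondins, fibronectin (Fn1), vitronectin (Vtn), the nidogens (Nid1 and Nid2) and perlecan (Hspg2). This gave 43 of the 14217 genes measured, on 62 of 31042 probe sets. There were 21 integrin chains (7 of leukocytes, Itgav and Itgb3 of osteoclasts and platelets, and 12 of stroma, epithelium and muscle), 10 laminin chains, 3 nidogens and perlecan, fibronectin and vitronectin, 3 thrombospondins, and 4 genes caught by the integrin prefix that encode no integrin chain (Itgbl1, Itgb1bp1, Itgb1bp2 and Itgb3bp).

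The 4 groups of female Sprague-Dawley rats of postnatal day (PND) 81 were OVX rats fed a diet with 10% blueberry (BB) from PND 20 until PND 81 (LTBB OVX), OVX rats fed it from PND 20 until PND 34 and the control diet after that (STBB OVX), OVX rats fed the control casein diet, and sham-operated rats fed the control casein diet. Surgery was on PND 60. Each group had 3 Affymetrix arrays, each hybridized with RNA pooled from 2 to 3 rats; the labels name the femur as the source and the methods the right tibia. The p-values therefore rest on the spread between pools, n = 3 per group, taken as 1 spread per gene over all 4 groups. That spread was not equal in all groups. Over all probe sets, sham arrays differed from the other pools of their group by a root mean square of 0.21 to 0.28. In arrays of OVX rats this was 0.15 to 0.21. In whole bone fewer cells of a type and less RNA per cell cannot be told apart. The deposited log2 values are centred, probe set by probe set, on a median of 0 across the 12 arrays. They show how a gene differs between arrays and not how much of it there is.

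Integrins are receptors made of an alpha and a beta chain that tie cells to the matrix or to other cells. The alpha chain, with its beta partner, sets the ligand: collagen, laminin, fibronectin, or counter-receptors on other cells. In bone the pair alpha v beta 3 is best known from the osteoclast, where it anchors the cell to bone matrix, and beta 2 integrins are restricted to leukocytes. Laminins are trimers of an alpha, a beta and a gamma chain that, with nidogen, perlecan and type IV collagen, build the basement membranes of vessels, muscle fibres, nerves and fat cells.

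Markers of several tissues differed between the sham arrays and the arrays of OVX rats on any diet. All 26 skeletal muscle markers fell in OVX bone, with a mean centred value of -2.38 to -1.14 in the OVX arrays and 3.74 to 4.54 in the sham arrays. Markers of neutrophils (7 of 7 fell; -0.27 to 0.015 in OVX and 2.05 to 2.60 in sham arrays), platelets (10 of 10; -0.25 to 0.036 and 1.77 to 2.23) and red cells (10 of 11; -0.19 to 0.026 and 1.92 to 2.27) were lower in OVX bone. Markers of osteoclasts (8 of 8 rose; -0.0073 to 0.15 in OVX and -2.24 to -1.95 in sham arrays), osteoblasts and osteocytes (10 of 11; -0.045 to 0.11 and -2.20 to -2.01), cartilage (11 of 12; -0.056 to 0.27 and -4.50 to -4.39) and endothelium (11 of 12; 0.017 to 0.065 and -0.85 to -0.76) were higher. The remaining endothelial marker fell, with a log2 difference of -1.02. The part of these tissues in the values below was not tested. As every probe set is centred, no marker list can show which of these cell types a sample lacked.

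Of the 43 members, 23 rose and 13 fell in OVX against sham-operated bone by limma, and 7 did not pass (36 of 43 called, or 83.7%, where 58.9% of all 14217 genes were called). Over all genes 30.3% rose and 28.6% fell, and the members' own shares were 53.5% and 30.2%. The median log2 difference of the members was 0.32, against 0.0047 for all genes. The pools did not overlap in 35 of the 43 members, where 61.2% of all genes had pools without overlap. By probe set, 31 of 62 rose, 16 fell and 15 did not pass, where 25.9% of all probe sets rose and 23.9% fell. Of 13 members with several probe sets, 6 had the same call in all of them and in 7 the calls differed. No member had probe sets called in opposite directions. Of the matrix proteins 12 of 18 rose and 2 fell (median 0.83). When the arrays were quantile normalized once more, 14 members rose and 5 fell, where 21.2% of all genes passed. This setting gives sham and OVX arrays the same spread, which alters the difference between the groups in centred values. Calls that ended with quantile normalization are listed below, and no conclusion on single genes is drawn from them. The differences below are on the log2 scale. The 21 integrin chains were split, with 10 that rose, 8 that fell and a median of 0.065.

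**Figure D1:**
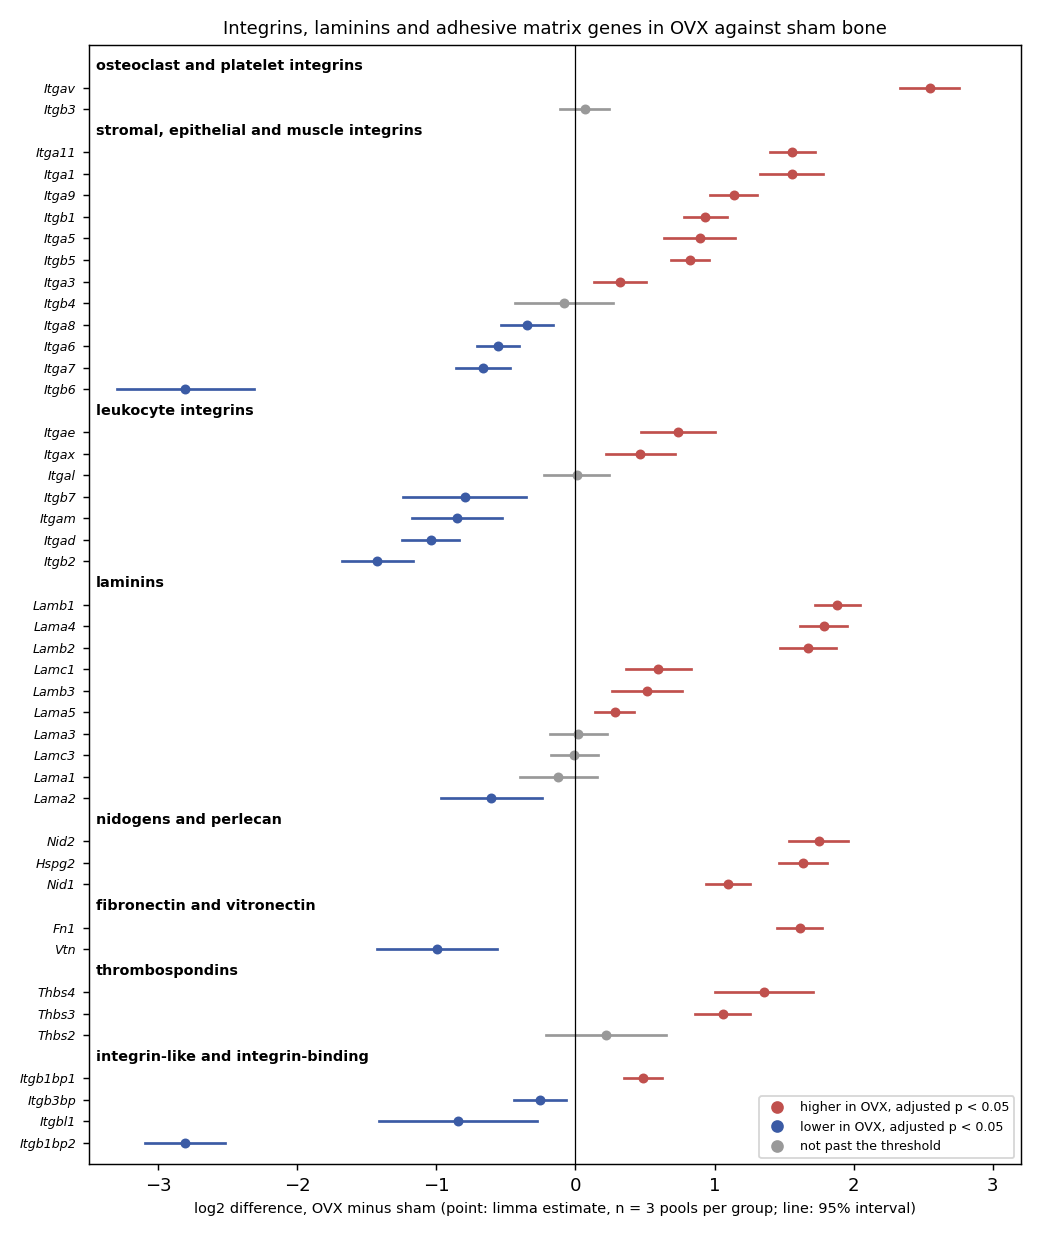
Log2 difference between OVX and sham-operated bone for the 43 members, by class; points are limma estimates (n = 3 pools per group), lines are 95% intervals, and colour gives the call at an adjusted p of 0.05. Itgav lies farthest to the right at 2.55, and Itgb6 and Itgb1bp2 farthest to the left, at -2.80 and -2.81.

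Itgav, the alpha v chain, had the largest rise of the members. Its values were -0.12, 0.078 and 0.11 in the OVX pools, against -2.32, -2.60 and -2.66 in the sham pools. All 3 OVX pools lay above all sham pools, by 5.85-fold on average, a log2 difference of 2.55 (SE 0.098, adjusted p = 2.9e-10). Its 3 probe sets rose alike, by 2.73, 2.71 and 2.20. The beta chains that can pair with alpha v did not move with it as a group. Itgb1, the most widely shared beta chain, stood at 0.02, 0.049 and 0.017 in OVX and -0.87, -0.99 and -0.86 in sham pools and rose by 0.93 (SE 0.07, adjusted p = 1.1e-07). Itgb5, a partner for vitronectin, rose by 0.82 (SE 0.064, adjusted p = 1.4e-07), with no overlap between pools (-0.04 to 0.11 in OVX and -0.82 to -0.71 in sham).

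Itgb3, which pairs with alpha v on osteoclasts and with the Itga2b chain on platelets, had -0.066, -0.036 and 0.18 in OVX and 0.0058, -0.014 and -0.11 in sham pools. The groups overlapped and the log2 difference was 0.065 (95% interval -0.11 to 0.24, adjusted p = 0.512). Itgb3 rests on 1 probe set, and centred values cannot show whether that probe set detected the transcript. Over the same arrays the osteoclast markers Acp5, the tartrate-resistant acid phosphatase, and Ctsk, the collagen-degrading cathepsin K, rose by 4.34 (SE 0.098) and 3.81 (SE 0.15). The platelet genes Itga2b and Pf4 changed the other way, by -2.48 (SE 0.17) and -2.22 (SE 0.17). Itgb6, known as the epithelial partner of alpha v that activates latent TGF-beta, stood at -0.13, -0.22 and -0.084 in OVX and 2.21, 2.39 and 3.38 in sham pools. It was 6.99-fold lower in OVX bone (-2.80, SE 0.23, adjusted p = 2.1e-07), and sham pool 3, in which the muscle markers were also highest, had the highest value. In the OVX pools the muscle markers stood at -2.07, -1.14 and -2.38. They stood at -1.62, -2.50 and 0.59 in LTBB OVX and -0.15, 0.63 and 0.55 in STBB OVX pools. Itgb6 had -0.35, -0.38 and -0.013 in LTBB OVX and 0.013, 0.035 and 0.21 in STBB OVX pools. The part of muscle in the Itgb6 values was not tested.

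**Figure D2:**
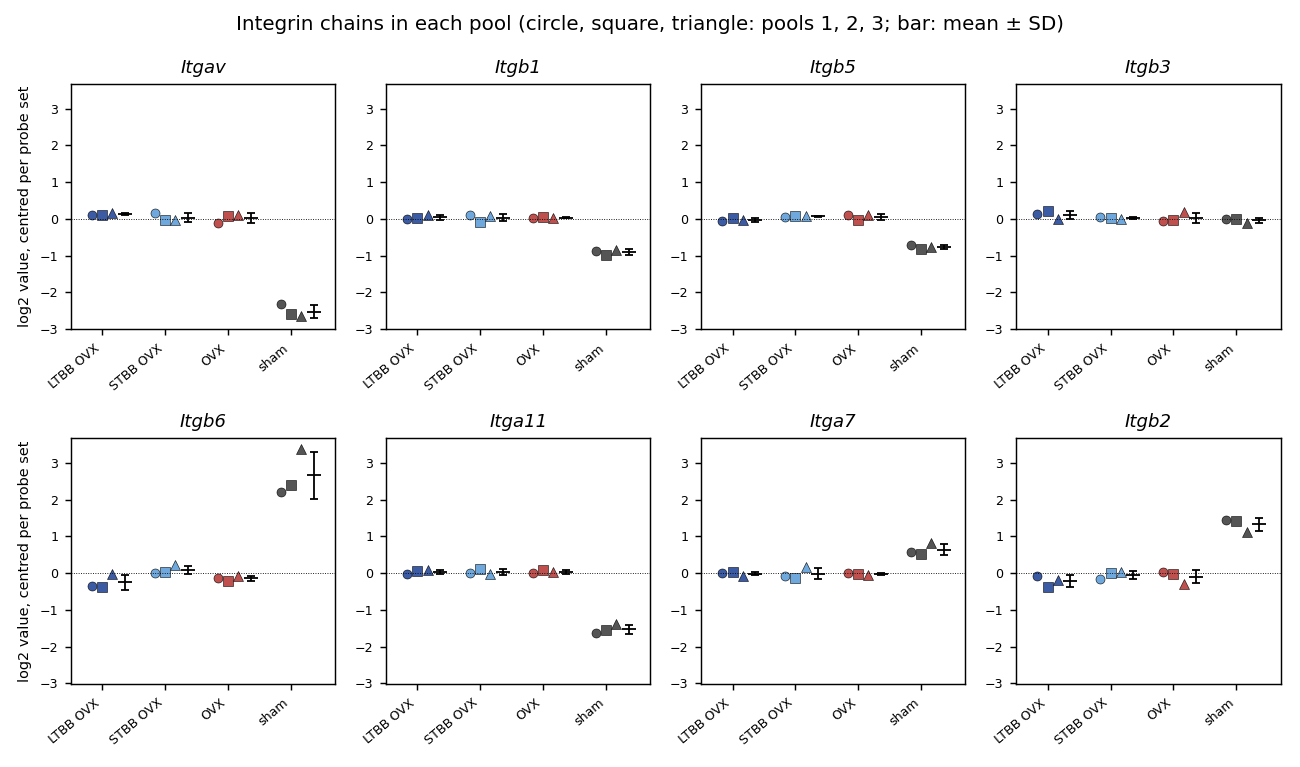
Centred log2 value of 8 integrin chains in each pool of LTBB OVX, STBB OVX, OVX and sham-operated bone; symbols tell the 3 pools of a group apart, with the mean ± SD as a bar (n = 3). Itgav lies at -0.12 to 0.11 in OVX pools and at -2.66 to -2.32 in sham pools, Itgb3 overlaps in all groups, and Itgb6, Itga7 and Itgb2 are higher in sham than in every other pool.

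Itga11, a collagen receptor of fibroblasts and osteogenic cells, stood at -0.011, 0.091 and 0.019 in OVX and -1.64, -1.55 and -1.39 in sham pools and rose 2.95-fold, by 1.56 (SE 0.075, adjusted p = 1.8e-09). Itga1, a receptor for collagen and laminin found on mesenchymal and vascular cells, had 0.075, -0.0052 and 0.14 in OVX and -1.31, -1.47 and -1.67 in sham pools and rose by 1.55 (SE 0.10, adjusted p = 3.8e-08). Both pair with the beta 1 chain alone, whose rise was smaller (Itgb1 95% interval 0.78 to 1.09; Itga11 95% interval 1.40 to 1.72). Itga5, the classical fibronectin receptor, stood at 0.36, 0.07 and 0.12 in OVX and -0.59, -0.92 and -0.62 in sham pools and rose by 0.89 (SE 0.12, adjusted p = 2.1e-05). Itga9, which binds tenascin C and osteopontin, rose by 1.14 (SE 0.077, adjusted p = 4.1e-08), its pools at 0.27, -0.0033 and 0.18 in OVX and -0.90, -1.07 and -0.99 in sham. Its probe sets differed in size, at 1.82 and 0.45. Itga3, a laminin receptor of epithelium and other cells, rose by 0.32 (SE 0.085, adjusted p = 0.00539). The calls of Itga5 and Itga3 ended when the arrays were quantile normalized once more and when a fold of at least 1.5 was asked for.

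Promoters were read for 32 of the 43 members, 250 bases before the start of the gene in the table of RefSeq promoters (GRCr8). They are shown for Itgav, Itga11 and Itgb1, the chain with the largest rise, the collagen receptor chain and its beta partner, which rose together, and for Vtn, which fell. The motifs were chosen after the values were seen. Capitals mark the GC box letters GGGCGG and the E-box letters CAGCTG on either strand.
Itgav, chr3:89245132-89245381, + strand: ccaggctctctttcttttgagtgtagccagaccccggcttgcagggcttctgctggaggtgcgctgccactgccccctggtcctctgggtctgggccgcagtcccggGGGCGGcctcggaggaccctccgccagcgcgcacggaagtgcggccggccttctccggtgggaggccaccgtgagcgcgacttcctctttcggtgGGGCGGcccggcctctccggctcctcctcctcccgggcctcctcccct
Itga11, chr8:72041182-72041431, + strand: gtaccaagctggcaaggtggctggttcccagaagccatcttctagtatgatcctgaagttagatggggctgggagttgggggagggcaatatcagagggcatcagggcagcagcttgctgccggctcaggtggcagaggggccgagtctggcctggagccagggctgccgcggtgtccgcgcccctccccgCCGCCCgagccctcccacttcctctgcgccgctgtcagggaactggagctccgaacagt
Itgb1, chr19:73602027-73602276, + strand: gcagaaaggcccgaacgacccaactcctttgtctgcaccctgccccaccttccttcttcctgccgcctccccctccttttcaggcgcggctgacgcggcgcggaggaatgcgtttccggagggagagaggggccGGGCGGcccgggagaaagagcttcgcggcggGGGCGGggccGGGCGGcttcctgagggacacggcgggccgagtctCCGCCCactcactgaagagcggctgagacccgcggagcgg
Vtn, chr10:63892532-63892781, + strand: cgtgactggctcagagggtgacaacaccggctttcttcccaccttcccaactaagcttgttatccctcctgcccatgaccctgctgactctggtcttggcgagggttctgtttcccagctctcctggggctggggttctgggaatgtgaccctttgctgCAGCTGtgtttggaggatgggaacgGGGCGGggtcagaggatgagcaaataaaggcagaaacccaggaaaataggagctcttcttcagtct
GGGCGG was found in the promoters of 18 of 32 members (56.2%) and in 30.5% of all 33469 promoters of the table; of these 18 members 13 rose, 4 fell and 1 did not pass. CAGCTG, the palindromic form bound by myogenic factors among others, was found in 4 members (12.5%, and 12% of all promoters): Itgb1bp2, Lama2 and Vtn fell and Lama3 did not pass. GAGGAA, the purine-rich core that PU.1 binds in myeloid genes, was found in 14 members (43.8%, and 23.3% of all promoters), of which 12 rose and 2, Itgam and Itgb6, fell. The search covered both strands, matches of different motifs could overlap by a few bases, and a match describes letters in this window alone. Each member counted once, while the table holds more promoters than the 14217 genes measured, so the shares are of unlike sets. Of all 43 members, with or without a promoter here, 23 rose and 13 fell. Whether a motif goes with a rise or a fall was not tested.

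Itga7, the main laminin receptor of muscle fibres, stood at -0.0031, -0.02 and -0.06 in OVX and 0.58, 0.52 and 0.82 in sham pools, without overlap, and fell by 0.67 (SE 0.091, adjusted p = 2.9e-05) on the log2 scale. Of its 3 probe sets 2 fell (-1.06 and -0.76) and 1 had -0.18 and did not pass. Itga6, a laminin receptor of epithelium, endothelium and platelets, had -0.043, -0.1 and -0.041 in OVX and 0.50, 0.49 and 0.50 in sham pools and fell by 0.56 (SE 0.068, adjusted p = 1.1e-05). Of its 4 probe sets 3 fell and 1 had 0.14 without passing. Itga8, a receptor of smooth muscle and mesangial cells that binds nephronectin and fibronectin, fell by 0.35 (SE 0.086, adjusted p = 0.00335), carried by 1 of 2 probe sets (-0.68 and -0.013). Itgb4, the hemidesmosome chain that pairs with alpha 6 alone, did not pass (-0.08, 95% interval -0.43 to 0.27). The calls of Itga7, Itga6 and Itga8 ended with quantile normalization and with a fold of at least 1.5, those of Itga6 and Itga8 also with 1 probe set per gene, where Itga6 was at 0.14.

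Of the 4 genes caught by the prefix, Itgb1bp2 (melusin, a protein of striated muscle that binds the beta 1 tail) changed most. It stood at -0.032, -0.14 and 0.00012 in OVX and 2.55, 2.70 and 2.99 in sham pools and was 6.99-fold lower in OVX bone (-2.81, SE 0.13, adjusted p = 1.5e-09). Over the same arrays all 26 muscle markers fell, with a median of -6.15. Itgbl1, an integrin beta-like secreted protein, fell by 0.85 (SE 0.26, adjusted p = 0.0133), with widely spread pools at -0.58, 0.34 and -0.22 in OVX and 0.58, 0.36 and 1.14 in sham. The pools did not overlap, though the highest OVX and the lowest sham pool were close. Without sham pool 3 or without OVX pool 1 the call of Itgbl1 ended (-0.62 and -0.63). Itgb1bp1, an inhibitor of beta 1 integrin activation, rose by 0.49 (SE 0.062, adjusted p = 1.6e-05), at -0.037, 0.0042 and 0.13 in OVX and -0.46, -0.47 and -0.43 in sham pools. Itgb3bp, a centromere protein named for its binding to beta 3, had -0.11, 0.11 and -0.12 in OVX and 0.37, 0.19 and 0.098 in sham pools and fell by 0.26 (SE 0.086, adjusted p = 0.0202). Of its 2 probe sets 1 fell (-0.30) and the other did not pass (-0.21). The call of Itgb3bp ended without sham pool 1, OVX pool 1 or OVX pool 3. Those of Itgbl1, Itgb1bp1 and Itgb3bp ended with quantile normalization and with a fold of at least 1.5.

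Of 7 leukocyte chains 4 fell (57.1%), 2 rose (28.6%) and 1 did not pass, where 28.6% of all genes fell and 30.3% rose. With quantile normalization Itgb2 and Itgad kept a call and the other 4 calls ended, those of Itgam, Itgb7, Itgae and Itgax, which also ended with a fold of at least 1.5. Itgb2, the beta chain that all alpha L, M, X and D integrins need, stood at 0.032, -0.013 and -0.31 in OVX and 1.45, 1.41 and 1.13 in sham pools and was 2.68-fold lower in OVX bone (-1.42, SE 0.12, adjusted p = 2.3e-07). Itgam, the alpha M chain of neutrophils and macrophages, stood at 0.15, -0.033 and 0.051 in OVX and 1.25, 0.97 and 0.51 in sham pools and fell by 0.85 (SE 0.15, adjusted p = 2.5e-04). Itgad, the alpha D chain of macrophages in spleen and marrow, had 0.13, -0.20 and -0.023 in OVX and 0.97, 1.06 and 1.0 in sham pools, a change of -1.04 (SE 0.094, adjusted p = 6.1e-07). Itgax, the alpha X chain of dendritic cells and macrophages, rose instead, by 0.47 (SE 0.11, adjusted p = 0.0033), at -0.19, 0.12 and 0.011 in OVX and -0.42, -0.34 and -0.71 in sham pools. Itgam, Itgax and Itgad follow one another on chromosome 1 of the rat assembly GRCr8. Itgal, the alpha L chain of lymphocytes, did not pass (0.0078, 95% interval -0.23 to 0.24).

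The chains Itgae and Itgb7, which pair on intraepithelial lymphocytes, split. Itgb7 stood at 0.073, -0.0087 and -0.052 in OVX and 1.30, 0.93 and 0.17 in sham pools and fell by 0.80 (SE 0.20, adjusted p = 0.00442). Its SD was 0.58 between sham and 0.064 between OVX pools, while the SE uses the spread shared by all 4 groups. Its partner Itgae rose by 0.74 (SE 0.12, adjusted p = 1.8e-04) (-0.012 to 0.25 in OVX and -0.72 to -0.46 in sham). Within the sham group pool 3 was lowest in Itgb7, Itgam, Itgb2, Itgal and Itgax. It was not lowest in Itgad (0.97, 1.06 and 1.0 in sham pools 1, 2 and 3). In Itgae it was highest (-0.58, -0.72 and -0.46). The same pool was lowest in the neutrophil markers (2.60, 2.32 and 2.05 in sham pools 1, 2 and 3). It was also lowest in those of T and NK cells (0.64, 0.41 and 0.079), B cells (0.76, 0.58 and 0.39) and macrophages (-0.27, -0.59 and -0.98). It was highest in those of muscle (3.74, 3.89 and 4.54). Of 9 macrophage markers 5 rose and 1 fell in OVX bone. Of 14 T and NK cell markers 3 rose and 4 fell, and of 5 B cell markers 3 fell. The shares called were 66.7%, 50% and 60%, where 58.9% of all genes were called. The part of these cells in the leukocyte chains was not tested. Among ligands of leukocyte integrins, 10 measured genes of adhesion molecules, 4 rose and 2 fell, with a median of -0.058, and the share called was near the 58.9% of all genes. Jam2 and Jam3, junctional ligands of leukocyte integrins, rose by 1.48 (SE 0.10) and 1.5 (SE 0.08), and Thy1, a surface protein of stromal and lymphoid cells, by 1.47 (SE 0.085). Icam1, the ligand of beta 2 integrins on endothelium, rose by 1.22 (SE 0.12). Cdh1, the E-cadherin that binds alpha E, fell by 1.52 (SE 0.091). Vcam1, the ligand of alpha 4 integrins, had -0.099 (SE 0.15, adjusted p = 0.599).

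Of 10 laminin chains 6 rose (60%), 1 fell (10%) and 3 did not pass, where 30.3% of all genes rose and 28.6% fell. The calls of Lamc1, Lama2, Lamb3 and Lama5 ended with quantile normalization and with a fold of at least 1.5. Lama4, the alpha chain of endothelial and perivascular basement membranes, stood at 0.11, 0.063 and -0.02 in OVX and -1.72, -1.70 and -1.79 in sham pools and rose 3.45-fold, by 1.79 (SE 0.078, adjusted p = 7.8e-10). Lamb1, the common beta 1 chain, had 0.0086, 0.17 and -0.056 in OVX and -1.78, -1.92 and -1.82 in sham pools and rose by 1.88 (SE 0.074, adjusted p = 3.5e-10). Lamb2, the beta chain of neuromuscular and vascular laminins, rose by 1.67 (SE 0.093, adjusted p = 6.7e-09), at 0.15, -0.13 and 0.0014 in OVX and -1.67, -1.81 and -1.52 in sham pools. Lamc1, the gamma chain that nearly all laminins share, rose less, by 0.60 (SE 0.11, adjusted p = 3.0e-04), its pools at 0.036, 0.044 and -0.024 in OVX and -0.53, -0.85 and -0.35 in sham. Of its probe sets 1 rose (0.90) and the other did not pass (0.29).

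Lama2, the alpha chain of muscle and Schwann cell basement membranes, was the chain that fell, by 0.61 (SE 0.17, adjusted p = 0.00699) on the log2 scale. It stood at -0.065, -0.058 and -0.011 in OVX and 0.51, 0.13 and 1.05 in sham pools, so that the sham pools differed among themselves more than the groups' nearest pools. Without sham pool 3 the difference was -0.36 (adjusted p = 0.0117). Lamb3, a chain of an epithelial laminin, rose by 0.51 (SE 0.11, adjusted p = 0.00172), and Lama5, an alpha chain of epithelial and vascular laminins, by 0.28 (SE 0.064, adjusted p = 0.00194), the last through 1 of 3 probe sets (0.89, against -0.0092 and -0.037). Lama1, Lama3 and Lamc3 did not pass (-0.12, 0.02 and -0.008).

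The proteins that link laminin to the collagen network rose together. Hspg2, the heparan sulfate proteoglycan perlecan of basement membranes and cartilage, stood at 0.087, -0.096 and 0.052 in OVX and -1.61, -1.75 and -1.51 in sham pools and rose 3.11-fold, by 1.64 (SE 0.079, adjusted p = 1.8e-09). Nid2 had 0.12, 0.03 and -0.049 in OVX and -1.90, -1.66 and -1.59 in sham pools and rose by 1.75 (SE 0.098, adjusted p = 6.8e-09). Nid1 had 0.017, 0.046 and 0.056 in OVX and -1.16, -0.90 and -1.11 in sham pools and rose by 1.10 (SE 0.073, adjusted p = 3.5e-08) as the mean of 2 probe sets that disagreed, 1 at 2.45 and the other at -0.25 without passing, so its size rests on 1 probe set. Of 18 further basement membrane genes 8 rose (44.4%) and 5 fell (27.8%), with a median of 0.052. Over all genes 30.3% rose and 28.6% fell. Col4a1 and Col4a2, the common type IV collagen chains, rose by 1.96 (SE 0.078) and 1.77 (SE 0.085), Agrn, the heparan sulfate proteoglycan agrin, by 2.22 (SE 0.077), and Col18a1, which holds endostatin, by 2.24 (SE 0.13). Sparc (osteonectin), a collagen-binding protein of bone and basement membranes, rose by 1.78 (SE 0.076). Tinagl1, a matricellular protein of basement membranes, fell by 1.10 (SE 0.14). Of the 11 endothelial markers that rose, Emcn, an endothelial sialomucin, had the largest rise at 2.01.

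**Figure D3:**
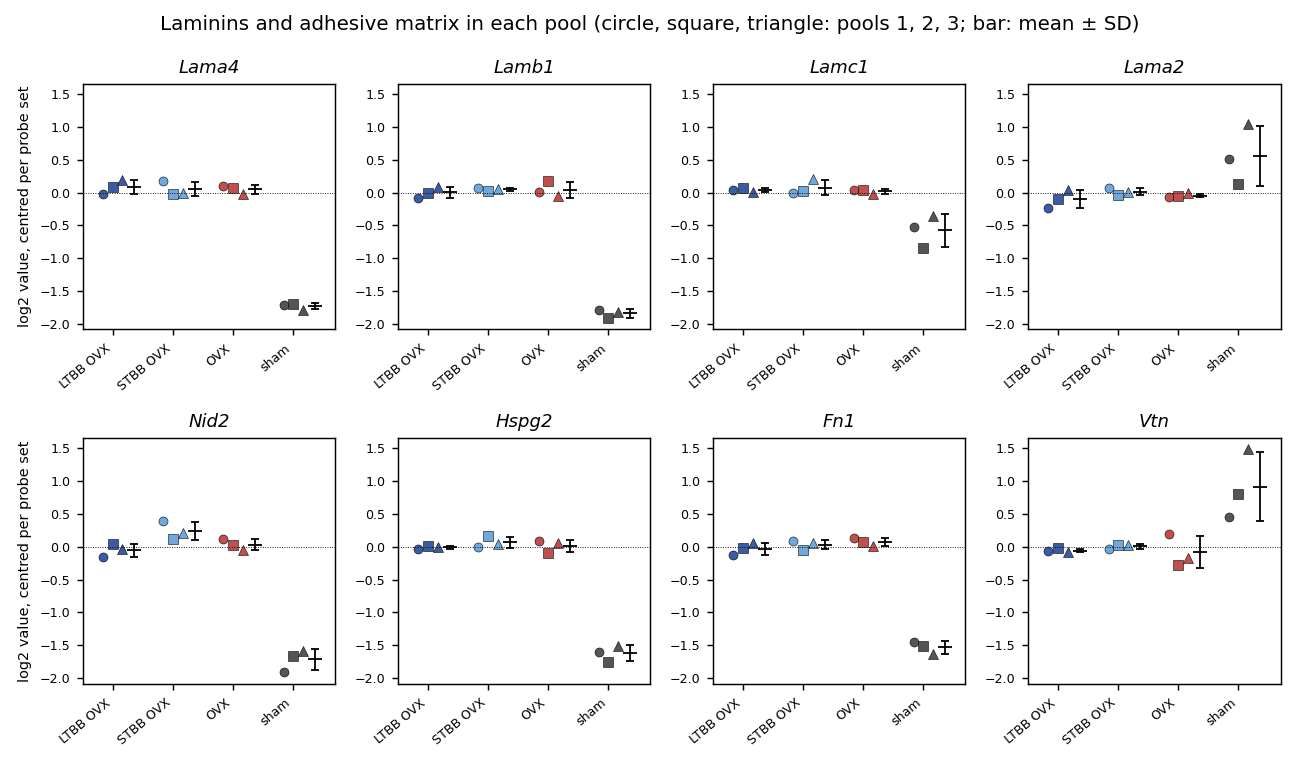
Centred log2 value of 4 laminin chains, Nid2, Hspg2, Fn1 and Vtn in each pool of LTBB OVX, STBB OVX, OVX and sham-operated bone; symbols tell the 3 pools of a group apart, with the mean ± SD as a bar (n = 3). Lama4, Lamb1, Nid2, Hspg2 and Fn1 are lower in every sham pool than in any other pool, while Lama2 and Vtn are higher in sham pools and spread widely there (0.13 to 1.05 and 0.45 to 1.49).

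Fibronectin and vitronectin, both ligands of alpha v integrins through an RGD motif, moved in opposite directions. Fn1, made by osteoblasts, fibroblasts and liver, stood at 0.14, 0.073 and 0.016 in OVX and -1.44, -1.52 and -1.64 in sham pools and rose 3.06-fold, by 1.61 (SE 0.075, adjusted p = 1.3e-09). Vtn, known mainly as a plasma protein of the liver, had 0.20, -0.27 and -0.17 in OVX and 0.45, 0.81 and 1.49 in sham pools, a change of -0.99 (SE 0.20, adjusted p = 7.5e-04). Sham pool 3 had the highest Vtn value, and without it the difference was -0.71. The call of Vtn ended with a fold of at least 1.5.

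Of 3 thrombospondins 2 rose (66.7%), where 30.3% of all genes rose. Thbs4, a matrix protein of tendon, muscle and cartilage, stood at -0.092, 0.0054 and -0.035 in OVX and -1.45, -1.70 and -1.03 in sham pools and rose by 1.35 (SE 0.16, adjusted p = 9.0e-06). Thbs3, a pentameric thrombospondin of developing cartilage and bone, had 0.27, -0.044 and 0.18 in OVX and -1.01, -0.88 and -0.89 in sham pools and rose by 1.06 (SE 0.091, adjusted p = 3.8e-07). Thbs2, made by fibroblasts and marrow stromal cells, had -0.08, 0.27 and 0.01 in OVX and -0.083, -0.37 and 0.0004 in sham pools and did not pass (0.22, 95% interval -0.21 to 0.65). Its difference was 0.11 without sham pool 2 and 0.12 without OVX pool 2. The call of Thbs4 ended with quantile normalization. Of 17 further RGD-bearing or matricellular ligands 10 rose (58.8%) and 4 fell (23.5%), with a median of 0.93. Over all genes 30.3% rose and 28.6% fell. Among these ligands Comp, the cartilage thrombospondin, rose by 5.09 (SE 0.16) and Spp1 (osteopontin) by 3.57 (SE 0.18). Tnc (tenascin C) rose by 2.81 (SE 0.065) and Ibsp (bone sialoprotein) by 2.67 (SE 0.058). Comp is also among the cartilage markers, and Spp1 and Ibsp among those of osteoblasts and osteocytes.

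Inside the cell the partners of integrins were divided. Of 34 genes of integrin activation and the adhesion plaque 14 rose (41.2%) and 15 fell (44.1%), with a median of 0.0035. Over all genes 30.3% rose and 28.6% fell. Among the kindlins, which switch integrins on, Fermt3, the form of blood cells, fell by 1.98 (SE 0.12, adjusted p = 1.2e-08), and Fermt2, the form of other tissues, rose by 0.94 (SE 0.069, adjusted p = 7.8e-08). Among the parvins, which link the kinase Ilk to actin, the blood cell form Parvg fell by 0.87 (SE 0.15) and the general form Parva rose by 1.34 (SE 0.082). Parvb, also a measured parvin, is not described here. Several genes of this paragraph were named for their role after their values were seen. Rasgrp2, the activator of Rap1 in platelets, fell by 1.70 (SE 0.11), and Apbb1ip, the Rap1 effector of leukocytes and platelets, fell by 0.80 (SE 0.12). Bcar1 (p130Cas), a scaffold phosphorylated on adhesion, rose by 1.42 (SE 0.15), and Ptk2, the focal adhesion kinase, by 0.64 (SE 0.082). Tln1 (talin 1), which couples integrin tails to actin, fell by 0.31 (SE 0.10, adjusted p = 0.0186).

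**Figure D4:**
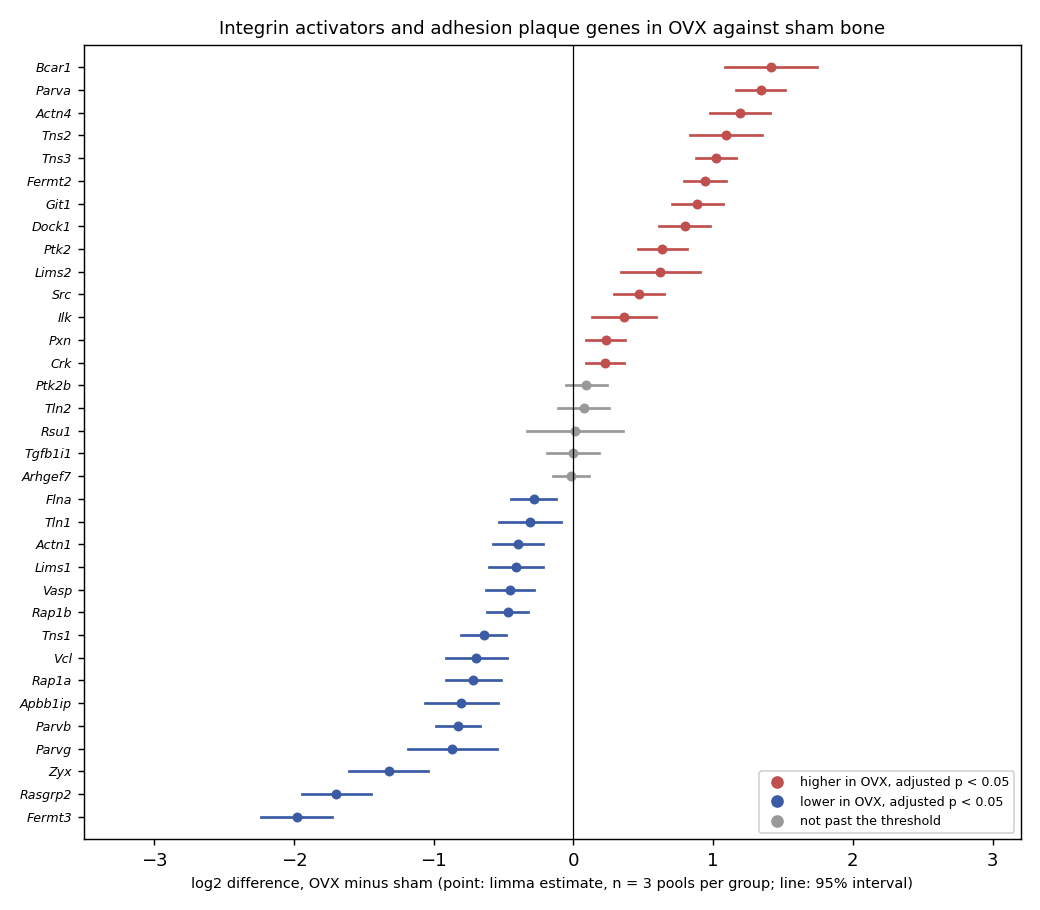
Log2 difference between OVX and sham-operated bone for 34 genes of integrin activation and the adhesion plaque; points are limma estimates (n = 3 pools per group), lines are 95% intervals, and colour gives the call at an adjusted p of 0.05. Bcar1 and Parva lie at the upper end (1.42 and 1.34) and Rasgrp2 and Fermt3 at the lower end (-1.70 and -1.98).

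Of 17 other receptors for laminin, thrombospondin and fibronectin 10 rose (58.8%) and 4 fell (23.5%), with a median of 0.49. Over all genes 30.3% rose and 28.6% fell. The syndecans Sdc1 and Sdc2, heparan sulfate co-receptors of matrix adhesion, rose by 3.29 (SE 0.13) and 2.56 (SE 0.062). Stab1, a scavenger receptor of macrophages and sinusoidal endothelium, rose by 1.96 (SE 0.084). Ddr2, a receptor kinase for fibrillar collagen, rose by 1.62 (SE 0.068), and Dag1 (dystroglycan), the laminin receptor of muscle and other cells, by 0.49 (SE 0.09). Its muscle partner Sgca fell by 1.30 (SE 0.25). Of the receptors of thrombospondin 1, Cd36 fell by 3.28 (SE 0.14) and Cd47 fell by 1.07 (SE 0.12).

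The BB diets were compared with the control diet within OVX rats. None of the 43 members differed by limma in LTBB OVX against OVX, in STBB OVX against OVX or between the BB diets, and 0% of all genes did (2.31%, 2.89% and 3.4% of all genes had an unadjusted p under 0.05 in these comparisons, and 0, 1 and 2 members). Pools did not overlap in 2 members in LTBB OVX against OVX, 3 in STBB OVX against OVX and 5 between the BB diets, where 8.7%, 9.38% and 10.9% of all genes had pools without overlap. The comparisons with OVX share the OVX pools. All 95% intervals of the members lay within a log2 difference of 1, and within 0.5 for 37 members in LTBB OVX, 40 in STBB OVX and 36 between the BB diets. The members' median difference was -0.023 in LTBB OVX and 0.0033 in STBB OVX, beside -0.0056 and -0.0088 over all genes.

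The members that rose or fell after OVX were also read on each diet. Itgav stood at 0.10, 0.12 and 0.15 in LTBB OVX and 0.16, -0.045 and -0.022 in STBB OVX pools, with log2 differences from OVX of 0.10 (95% interval -0.11 to 0.32) and 0.01 (95% interval -0.20 to 0.22). Fn1 had -0.13, -0.016 and 0.055 in LTBB OVX and 0.091, -0.042 and 0.051 in STBB OVX pools. Itgb6 had -0.35, -0.38 and -0.013 in LTBB OVX and 0.013, 0.035 and 0.21 in STBB OVX pools, with differences from OVX of -0.1 (95% interval -0.59 to 0.39) and 0.23 (95% interval -0.26 to 0.73). Against the same sham pools, 23 members rose and 13 fell in LTBB OVX bone and 23 rose and 13 fell in STBB OVX bone, where 29.2% and 29.3% of all genes rose and 29.1% and 29% fell (58.3% called in each). With the pool number as a block, 23 rose and 12 fell in LTBB OVX bone. Pools did not overlap in 36 members in each of these comparisons, where 62.7% and 62% of all genes had pools without overlap. Itgav differed from sham by 2.65 (SE 0.098) in LTBB OVX and 2.56 (SE 0.098) in STBB OVX, and Itgb2 by -1.55 (SE 0.12) and -1.37 (SE 0.12).

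The lowest unadjusted p between diets belonged to Thbs3. It stood at -0.083, -0.0031 and 0.0031 in LTBB OVX, 0.55, 0.32 and 0.31 in STBB OVX and 0.27, -0.044 and 0.18 in OVX pools. All STBB OVX pools lay above all LTBB OVX and OVX pools. The log2 difference was -0.42 (SE 0.091, adjusted p = 0.917) between LTBB OVX and STBB OVX and 0.26 (SE 0.091, adjusted p = 1) between STBB OVX and OVX by limma, so neither passed. Nid2 had -0.16, 0.038 and -0.03 in LTBB OVX and 0.39, 0.11 and 0.22 in STBB OVX pools, a difference of -0.29 (SE 0.098, adjusted p = 1). The cartilage markers were at -0.05, 0.053 and -0.039 in LTBB OVX, 0.64, 0.31 and 0.17 in STBB OVX and 0.27, -0.056 and 0.093 in OVX pools, and their part in these values was not tested. Itgb1bp2 had the third lowest p between LTBB OVX and STBB OVX (-0.23, SE 0.13, adjusted p = 1), at -0.39, -0.15 and -0.00012 in LTBB OVX and -0.14, 0.033 and 0.27 in STBB OVX pools. The muscle markers were at -1.62, -2.50 and 0.59 in LTBB OVX pools and at -0.15, 0.63 and 0.55 in STBB OVX pools, and their part was not tested. In LTBB OVX against OVX the lowest p were those of Lamb3 (-0.22, SE 0.11, adjusted p = 1), Itgam (-0.28, SE 0.15, adjusted p = 1) and Thbs3 (-0.16, SE 0.091, adjusted p = 1). Lamb3 stood at -0.061, 0.25 and -0.23 in LTBB OVX, -0.049, 0.049 and 0.071 in STBB OVX and 0.38, 0.17 and 0.076 in OVX pools, which overlapped between LTBB OVX and OVX. Its difference between STBB OVX and OVX was -0.19 (SE 0.11, adjusted p = 1). Itgam had -0.062, -0.32 and -0.28 in LTBB OVX and 0.15, -0.033 and 0.051 in OVX pools, without overlap. Leaving out 1 pool moved several of these values: Lamb3 in LTBB OVX against OVX was -0.12 without LTBB OVX pool 3, -0.35 without LTBB OVX pool 2 and -0.13 without OVX pool 1, and in STBB OVX against OVX -0.099 without OVX pool 1. Thbs3 in LTBB OVX against OVX was -0.094 without OVX pool 1 and -0.25 without OVX pool 2, and in STBB OVX against OVX 0.17 without OVX pool 2. Itgb1bp2 between the BB diets was -0.13 without LTBB OVX pool 1 or STBB OVX pool 3.

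**Figure D5:**
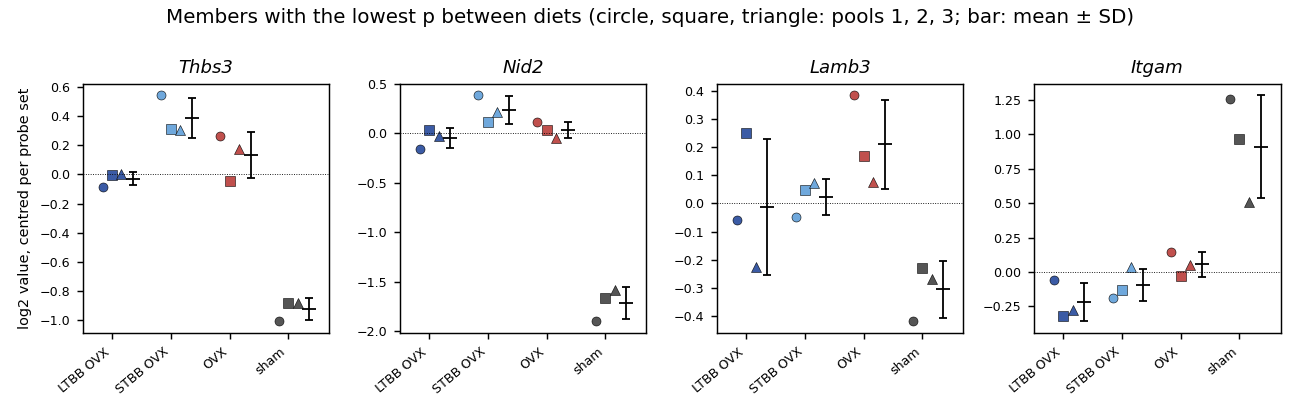
Centred log2 value of Thbs3, Nid2, Lamb3 and Itgam in each pool of LTBB OVX, STBB OVX, OVX and sham-operated bone, each panel on its own scale; symbols tell the 3 pools of a group apart, with the mean ± SD as a bar (n = 3). Thbs3 is at -0.083 to 0.0031 in LTBB OVX, 0.31 to 0.55 in STBB OVX and -0.044 to 0.27 in OVX pools, and none of these differences passed limma.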

How the data were processed

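Log2 values of 12 Affymetrix rat arrays were used. According to the methods, the authors made these log2 values by robust multiarray analysis and raised the smallest measurements to a minimum in GeneSpring before scaling each chip and then each gene. GCOS and RMA appear in the submitters' processing notes (versions not given in the sources used here). Every probe set is centred on its median over the arrays, so dim probe sets could not be filtered. Control probe sets (57) were left out. A gene's value is the mean over the probe sets with its symbol alone; 20758 symbols were updated by gene ID through RefSeq genes of GRCr8, used for names and gene order. Of the 43 members 13 have several probe sets.

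The test was limma 3.58.1 (R 4.3.3; 4 group means, all 12 arrays, 6 contrasts, Benjamini-Hochberg adjustment over 14217 genes at 0.05; SE is the moderated standard error). The fit was also run on simulated data in which few genes changed and the spread was equal in all groups. These settings differ from the data, and no result here rests on that run. Arrays were centred or quantile normalized again, weighted, left out in turn or fitted by pairs of groups; 1 probe set per gene, a fold of at least 1.5, a robust prior and the pool number as a block were tried. Members, classes and lists were chosen with earlier results of these data known. Values in every pool were given, by rule, for a fixed set of members and up to 4 of each class with the largest change between OVX and sham, and the 3 members with the lowest p per diet comparison; up to 4 genes per partner list with the largest change were named by rule, and other genes for their role after their values were seen. Deviations from the group means correlated between same-numbered pools at 0.11 to 0.23 for sham and LTBB OVX (3 of 3 pairs over 0.1). For sham and STBB OVX they correlated at 0.10 to 0.17 (3 of 3 pairs over 0.1). Over all 18 same-numbered pairs r was -0.38 to 0.23, with 6 over 0.1. Over the 36 pairs of different numbers r was -0.23 to 0.38, with 8 over 0.1. The labels give no pairing, and these values do not establish one. The number of arrays limits the precision. Python 3.11.15 and matplotlib 3.10.9 made the figures.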

Additional observations from a re-analysis of the deposited data

How the results depend on the processing

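The counts of members that rose or fell after OVX (23 and 13) were the same after each array was centred on its median again, with array weights, with a robust prior and with the pool number as a replicate block (23 and 13). With 1 array left out, 23 rose and 11 to 13 fell. Fewer passed when the arrays were quantile normalized once more (14 and 5, where 21.2% of all genes passed). Fewer also passed when a fold of at least 1.5 was asked for (15 and 4, where 20.2% of all genes passed). The same settings gave 15 and 6, and 14 and 5, in LTBB OVX against sham, where 22.5% and 20.2% of all genes passed. In STBB OVX against sham they gave 14 and 3, and 15 and 5, where 22.1% and 20.3% of all genes passed. With 1 array left out of the main fit, 22 to 23 members rose and 12 to 13 fell in both of these comparisons. Quantile normalization gave all arrays the same distribution. The sham arrays are spread more widely around the centre (SD over all probe sets 0.781 to 0.824) than arrays of OVX rats (0.136 to 0.194). Every probe set is centred on its median over the arrays, and most arrays are of OVX rats. The wider spread of sham arrays therefore includes the difference between the groups, which a shared distribution alters. For this reason the setting cannot show whether a single call is fragile. The cause of the lost calls was not tested. The calls that ended with quantile normalization were those of Itga3, Itga5, Itga6, Itga7, Itga8, Itgae, Itgam, Itgax, Itgb1bp1, Itgb3bp, Itgb7, Itgbl1, Lama2, Lama5, Lamb3, Lamc1 and Thbs4, none of which turned sign. With 1 probe set per gene, taken by its ID, the calls of Itga6, Itga8, Lama5, Lamc1 and Nid1 ended, and 3 of them turned sign (Itga6 0.14, Lama5 -0.0092 and Nid1 -0.25). Itgb3, which did not pass in any setting, ranged over -0.012 (without OVX pool 3) to 0.11 with 1 array left out. With only the groups compared in the fit, the call of Itgb3bp ended. In the diet comparisons no member passed in any setting, with the arrays of OVX rats alone included, a setting chosen after seeing the data. With the pool number as a block, 23 members rose and 12 fell in LTBB OVX against sham (13 without the block), and the counts of the other comparisons were the same. Same-numbered pools of OVX and each other group, and of the BB diets with each other, did not correlate above 0.1. Pools of different numbers correlated at up to 0.38, so in the main fit the number only names a pool.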
